A study of Homo sapiens with 4 samples.

Results

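Aminoacyl-tRNA synthetases were examined in HEK293A cells as 39 genes of the 58736 features listed for each library. The set held 19 genes of cytosolic enzymes, 16 genes of mitochondrial enzymes and 4 genes of partner factors, namely the multisynthetase scaffold genes AIMP1, AIMP2 and EEF1E1 and the tRNA export receptor gene XPOT. Members were chosen by name alone, through the Ensembl identifier of each current or older symbol, and all 39 were found. The family itself was picked with results of the same comparison known, so its changes are given as a description of these libraries and not as independent evidence.

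Each aminoacyl-tRNA synthetase attaches a given amino acid to the tRNAs that decode it, and the charged tRNAs feed the ribosome. Human cells keep separate nuclear genes for most of the cytosolic and mitochondrial enzymes, whereas GARS1 and KARS1 each supply both compartments, and EPRS1 is a fused enzyme for glutamate and proline. Several cytosolic enzymes sit in a multisynthetase complex built on AIMP1, AIMP2 and EEF1E1, and genes of cytosolic synthetases are known targets of the transcription factor ATF4 when amino acids run short.

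The tested cells had received the DNA probe labelled NT1_hp2 (replicates 2 and 3), and the reference cells a negative control (replicates 1 and 3). HEK293A is an established human embryonic kidney epithelial line. Wells of both groups had received 1 µg of FEN1 plasmid, which encodes a flap endonuclease, and 500 pmol of DNA probes 48 h later, with RNA taken after 72 h. The sources used here do not give the sequence or intended target of NT1_hp2, the control probe, or whether replicates were separate cultures. P-values therefore reflect library-to-library spread only, and that spread may be technical.

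The deposited values, taken as FPKM (reads per kilobase of exon, scaled for library depth), rested on 13647614 and 13602537 reads in NT1_hp2 and on 14908687 and 12506203 reads in the negative control, without the EGFP row. A member had between 19 and 6472 reads in a library, and 3 reads on a gene of 1 kilobase equalled 0.208 to 0.239 FPKM, a floor for counting error only. Mitochondrially encoded genes took 4.33% and 4.29% of the reads in NT1_hp2, against 6.06% and 5.92% in the negative control. Of 9 markers of the line's epithelial and kidney origin, 6 had at least 1 FPKM in every library, and EPCAM, PAX2 and PAX8 were below 1 FPKM. Their summed level was 282 to 288 FPKM in NT1_hp2 and 308 to 334 FPKM in the negative control. Among markers of other cells, PTPRC and CD3E were at 0 in every library. In bulk RNA, fewer cells of a type and less RNA per cell cannot be told apart. The part of these differences in the results below was not tested.

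Cytosolic synthetase mRNAs were mostly more abundant in NT1_hp2 cells, and mitochondrial synthetase mRNAs were not. Of the 19 cytosolic genes, 11 rose, 2 fell and 6 did not pass the test (a limma fit with intensity trend on log2(FPKM + 1), called at an adjusted p under 0.05 by Benjamini-Hochberg over all 16362 tested genes). Over all tested genes 13.9% passed, 5.00% as higher and 8.92% as lower. Of 15 mitochondrial genes tested, 0 rose and 1 fell. An unadjusted p under 0.05 in limma-trend was found for 6 of them, all as lower values. Over all tested genes 6061 of 16362 had such a p, 2600 of them as higher values. Limma-voom on recovered reads called 6 of the 15, all lower, and 35.4% of all genes in that fit. The sixteenth gene, SARS2, was below 1 FPKM in all 4 libraries and was not tested. The median log2 fold change was 0.35 for the cytosolic genes and −0.10 for the mitochondrial ones, beside −0.01 for all tested genes and −0.03 for tested protein-coding genes.

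**Figure D1:**
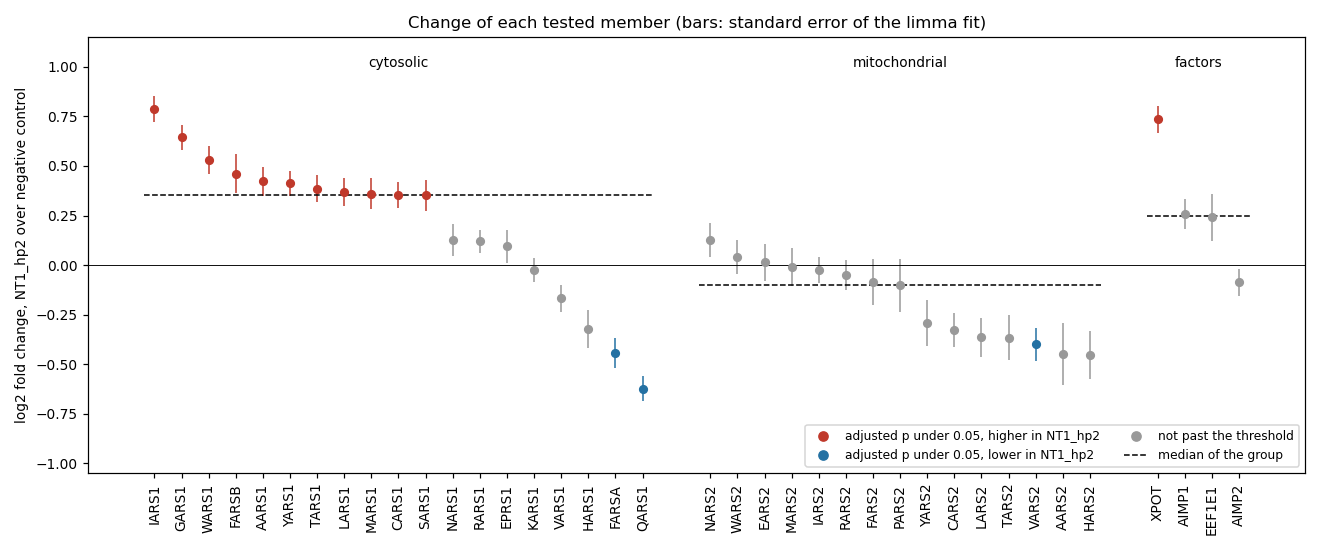
Log2 fold change of NT1_hp2 over negative control for the 38 tested members (vertical axis), grouped into cytosolic synthetases, mitochondrial synthetases and factors, with bars for the standard error of the limma fit and dashed lines for the group medians of 0.35, −0.10 and 0.25. Of the cytosolic genes 11 are coloured as higher and 2 as lower, of the mitochondrial genes 1 as lower, and of the factors XPOT as higher.

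IARS1, the isoleucine enzyme of the complex (ENSG00000196305, chromosome 9, 92210207 to 92293756, GRCh38), had the largest fitted change of the members. It was at 61.9 and 59.4 FPKM in NT1_hp2 replicates 2 and 3, against 33.9 and 35.6 FPKM in negative control replicates 1 and 3. Both NT1_hp2 libraries lay well above both controls, a 1.75-fold difference in mean level (fitted log2 difference 0.79 with SE 0.067, and adjusted p = 0.0340 in limma-trend). GARS1, the glycine enzyme of cytosol and mitochondria, was at 32.6 and 32.3 FPKM in NT1_hp2 and at 19.8 and 21.0 FPKM in the negative control. WARS1, the tryptophan enzyme, was at 14.4 and 13.4 FPKM in NT1_hp2, against 9.45 and 9.15 FPKM in the negative control. These were 1.59-fold and 1.49-fold differences, with no overlap between the groups.

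The cytosolic members with the highest levels in NT1_hp2 rose by smaller factors than IARS1, GARS1 and WARS1. AARS1, for alanine, was at 71.5 and 68.4 FPKM in NT1_hp2, against 53.7 and 50.1 FPKM in the negative control. SARS1, for serine, was at 66.7 and 61.3 FPKM in NT1_hp2, against 51.3 and 48.5 FPKM in the negative control. TARS1, for threonine, was at 63.6 and 60.5 FPKM in NT1_hp2, against 48.0 and 46.5 FPKM in the negative control. Each of these 3 was 1.28 to 1.35 times as high in NT1_hp2, and in each both NT1_hp2 libraries exceeded both controls.

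The remaining increases were of similar size, between 1.30-fold and 1.41-fold. YARS1, for tyrosine, had 19.5 and 20.3 FPKM in NT1_hp2 and 14.9 and 14.5 FPKM in the negative control. LARS1, the leucine enzyme of the complex, had 26.1 and 24.3 FPKM in NT1_hp2 and 18.7 and 19.9 FPKM in the negative control. CARS1, for cysteine, had 10.5 and 10.1 FPKM in NT1_hp2 and 7.89 and 7.82 FPKM in the negative control. Each of them kept the groups apart, although LARS1 and CARS1 did not pass after per-library trends with gene length and GC content were removed (limma-trend adjusted p = 0.0969 and 0.0550), nor did TARS1 (0.0558).

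MARS1, the methionine enzyme of the complex, had 21.2 and 21.3 FPKM in NT1_hp2 and 17.4 and 15.3 FPKM in the negative control, with an adjusted p of 0.0487 in limma-trend, close to the threshold. Its exons share 355 bases with those of DDIT3 on the opposite strand, which is 5.05% of the exon bases of MARS1 and 27.2% of those of DDIT3. DDIT3, which encodes the stress factor CHOP, had 1498 and 1518 recovered reads in NT1_hp2 against 688 and 566 in the negative control. MARS1 had 2100 and 2121 reads in NT1_hp2 against 1756 and 1352 in the negative control. The library kit named in the labels does not mark strand, and how reads in shared bases were assigned is not given, so the level of MARS1 is uncertain to that extent.

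The phenylalanine enzyme is built from alpha and beta subunits in equal number, and the mRNAs of its subunits moved in opposite directions. FARSA, the alpha subunit gene, fell to 36.6 and 36.1 FPKM in NT1_hp2, against 52.3 and 47.3 FPKM in the negative control. FARSB, the beta subunit gene, rose to 15.1 and 14.4 FPKM in NT1_hp2, against 11.4 and 9.50 FPKM in the negative control. In limma-trend the log2 fold changes were −0.44 (SE 0.075, adjusted p = 0.0362) for FARSA and 0.46 (SE 0.0998, adjusted p = 0.0474) for FARSB. The transcripts differ in base composition, with a GC content of 60.3% for FARSA and 41.6% for FARSB, and after the length and GC correction neither passed, at −0.13 (adjusted p = 0.175) and 0.37 (0.0878).

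QARS1, the glutamine enzyme of the complex (chromosome 3, 49095932 to 49105135), fell furthest of the members. It was at 23.9 and 24.4 FPKM in NT1_hp2, against 38.9 and 36.6 FPKM in the negative control, which is 0.640 of the control level. Its log2 fold change was −0.62 (SE 0.065, limma-trend adjusted p = 0.0340), and −0.46 after the length and GC correction (adjusted p = 0.0405). QARS1 thus lay opposite to IARS1, LARS1 and MARS1, which encode enzymes of the same complex.

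Of the cytosolic genes that did not pass, NARS1 and RARS1 had both NT1_hp2 libraries above both controls, HARS1 and VARS1 had both below, and EPRS1 and KARS1 overlapped. KARS1, the lysine enzyme of both compartments, was at 23.6 and 23.0 FPKM in NT1_hp2 and at 24.0 and 23.3 FPKM in the negative control, and EPRS1 averaged 26.0 ± 2.45 FPKM in NT1_hp2 and 24.2 ± 0.504 FPKM in the negative control (SD, n = 2 each). NARS1, the asparagine enzyme, was high in every library at 45.2 and 44.9 FPKM in NT1_hp2 and 43.8 and 38.8 FPKM in the negative control. VARS1, the valine enzyme, was at 9.43 and 10.1 FPKM in NT1_hp2 and at 11.1 and 11.1 FPKM in the negative control. The arginine gene RARS1 had a log2 fold change of 0.12 and the histidine gene HARS1 of −0.32. Over the whole cytosolic list 13 genes had both NT1_hp2 libraries above both controls and 4 had both below, where 32.0% and 34.8% of all tested genes did so (66.8% in either direction). The log2 fold changes had a median of 0.37 for the 12 genes outside the multisynthetase complex, of which 8 rose and 1 fell, and of 0.12 for the 7 genes in it, of which 3 rose and 1 fell. Whether these medians differ was not tested.

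**Figure D2:**
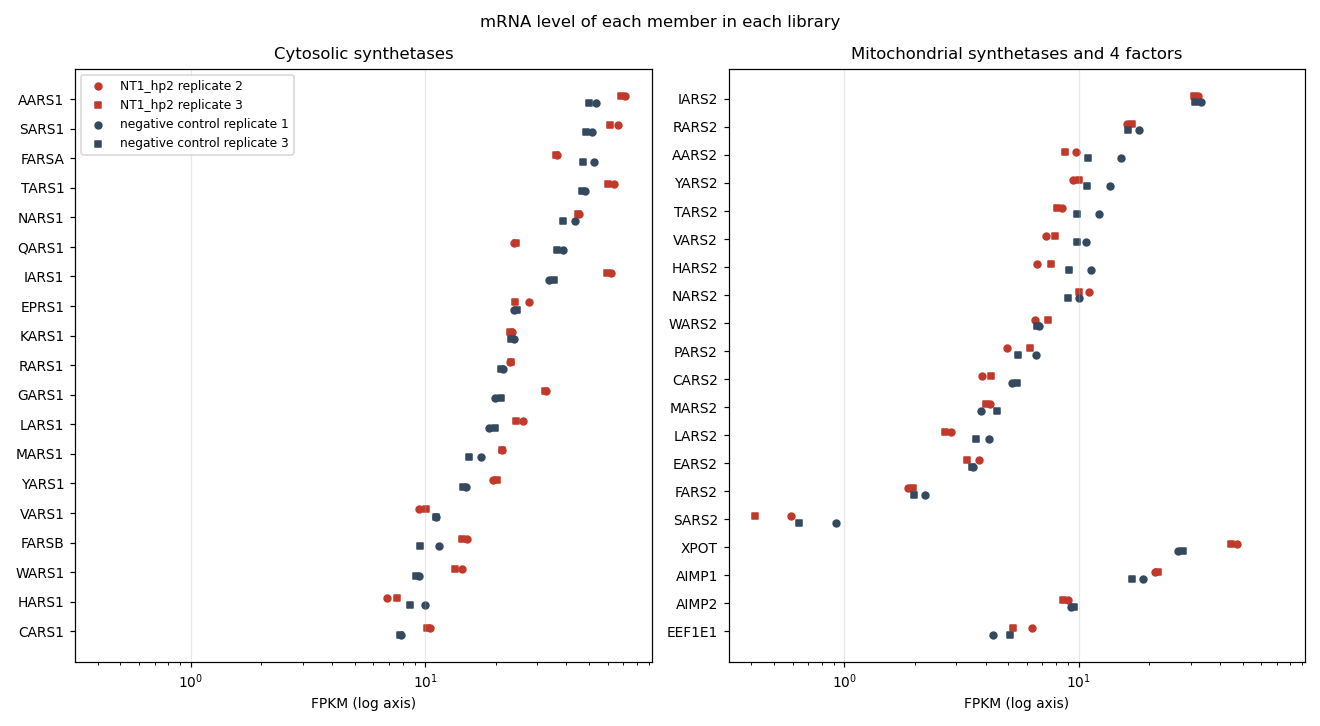
FPKM of each member in each library on a log axis, cytosolic synthetases on the left and mitochondrial synthetases above the 4 factors on the right, each ordered by the negative control mean. NT1_hp2 libraries (red) lie to the right of the negative control (dark) for genes such as IARS1, GARS1 and XPOT, and to the left for QARS1, FARSA and VARS2.

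Promoter sequences are shown for the members that hold the core of the C/EBP-ATF response element, the site through which ATF4 dimers act on amino acid response genes. RefSeq promoters (GRCh38.p14, 250 bases before to 50 after each start) were matched for 34 of the 39 members, in 46 entries. AARS2, LARS1, VARS1, VARS2 and YARS1 were not among them. The letters TGATGNAA, read on both strands, were present for 7 of 16 cytosolic members, 1 of 14 mitochondrial members and 0 of 4 factors, and in 3.62% of all 35116 promoters (4.46% of all 27305 symbols with a promoter). Among the cytosolic members with a promoter, 6 of 9 that rose, 0 of 2 that fell and 1 of 5 that did not pass held these letters. In the windows below the core is in capitals and reads 5′ to 3′ on the strand named, with up to 20 bases on each side.
IARS1, chr9:92293683-92293730, plus strand: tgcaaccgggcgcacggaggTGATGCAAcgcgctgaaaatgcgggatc
AARS1, chr16:70289666-70289713, plus strand: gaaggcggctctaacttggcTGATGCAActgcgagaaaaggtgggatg
CARS1, chr11:3057398-3057445, plus strand: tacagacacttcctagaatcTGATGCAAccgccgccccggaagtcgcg
TARS1, chr5:33440947-33440994, minus strand: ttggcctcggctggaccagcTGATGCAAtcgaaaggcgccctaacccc
MARS1, chr12:57488044-57488091, minus strand: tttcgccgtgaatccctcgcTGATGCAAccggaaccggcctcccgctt
GARS1, chr7:30594825-30594872, minus strand: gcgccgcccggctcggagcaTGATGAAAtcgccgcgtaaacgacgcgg
NARS1, chr18:57621795-57621842, minus strand: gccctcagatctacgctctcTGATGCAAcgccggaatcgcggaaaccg
YARS2, chr12:32756067-32756114, minus strand: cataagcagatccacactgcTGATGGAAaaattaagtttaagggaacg

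The first 7 windows belong to cytosolic members and the last to a mitochondrial one. TGATGCAA, the version of the core in IARS1, AARS1, CARS1, TARS1, MARS1 and NARS1, was found for 6 of 16 cytosolic and 0 of 14 mitochondrial members. It was present in 0.866% of all promoters and for 1.08% of all symbols with a promoter. Along the gene strand and counted from the RefSeq start, the first base of the match lay at −13 in IARS1, −2 in CARS1, −4 in MARS1, −33 in GARS1, 3 in TARS1, 15 in NARS1, −187 in AARS1 and −197 in YARS2. NARS1 carried the same core as IARS1 and did not pass the test, and FARSB, SARS1 and WARS1 rose without it in the windows searched. The letters were chosen with the changes known, a match is no proof of a working site, and a missing match says nothing of sites elsewhere.

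The promoters of IARS1 and QARS1 are given whole, because these genes had the highest and the lowest fitted change of the members. Capitals mark the core on the opposite strand (TTGCATCA) in IARS1, and QARS1 held no match.
IARS1, chr9:92293648-92293947, minus strand: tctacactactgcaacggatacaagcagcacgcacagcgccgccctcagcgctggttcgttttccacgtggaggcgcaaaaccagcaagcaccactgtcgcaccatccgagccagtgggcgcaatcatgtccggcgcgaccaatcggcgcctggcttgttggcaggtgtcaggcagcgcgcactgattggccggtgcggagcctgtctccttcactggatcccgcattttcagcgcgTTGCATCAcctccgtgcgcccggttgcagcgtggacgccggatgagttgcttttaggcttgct
QARS1, chr3:49104708-49105007, minus strand: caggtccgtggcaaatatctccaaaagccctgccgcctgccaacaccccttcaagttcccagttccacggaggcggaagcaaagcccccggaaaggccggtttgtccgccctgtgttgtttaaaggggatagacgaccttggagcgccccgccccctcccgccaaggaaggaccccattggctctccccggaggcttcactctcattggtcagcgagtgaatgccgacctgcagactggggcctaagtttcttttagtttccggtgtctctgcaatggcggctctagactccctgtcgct

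CCAAT, read on both strands, was present for 7 of 16 cytosolic, 9 of 14 mitochondrial and 3 of 4 factor genes. It was present in 34.6% of all promoters and for 39.7% of all symbols with a promoter.

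Mitochondrial synthetase genes were expressed at lower levels, with medians of 6.58 and 7.48 FPKM in NT1_hp2 and 8.39 and 7.85 FPKM in the negative control, beside 23.9 and 24.3 FPKM in NT1_hp2 and 21.4 and 21.0 FPKM in the negative control for the cytosolic genes. FPKM divides by all annotated exon bases, so levels of genes with long unused exons are understated. VARS2, the mitochondrial valine enzyme gene, was the member that fell, to 7.23 and 7.91 FPKM in NT1_hp2, against 10.8 and 9.86 FPKM in the negative control (log2 fold change −0.40, SE 0.082, limma-trend adjusted p = 0.0440). It did not pass after the length and GC correction (−0.21, adjusted p = 0.114). It shares 1858 of its 8448 exon bases with GTF2H4 on the same strand, which had 0 to 5 reads in a library, and how reads in shared bases were assigned bears on the level of VARS2.

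In the other mitochondrial genes the negative control libraries often differed from each other. AARS2, for alanine, was at 9.72 and 8.72 FPKM in NT1_hp2, against 15.1 and 11.0 FPKM in negative control replicates 1 and 3, and HARS2, for histidine, at 6.65 and 7.58 FPKM in NT1_hp2, against 11.2 and 9.08 FPKM in the negative control. TARS2 was at 8.44 and 8.07 FPKM in NT1_hp2, against 12.2 and 9.80 FPKM in the negative control. YARS2 was at 9.41 and 9.98 FPKM in NT1_hp2, against 13.6 and 10.8 FPKM in the negative control. All 4 had both NT1_hp2 libraries below both controls and replicate 1 as the higher control, and none of them passed (limma-trend adjusted p of 0.113, 0.0662, 0.0858 and 0.142). Negative control replicate 1 held the highest value of the 4 libraries for 11 of the 16 mitochondrial genes and 5 of the 19 cytosolic genes. Its ratio to replicate 3 had a median of 1.11 over the mitochondrial and 1.03 over the cytosolic genes.

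CARS2, at 3.84 and 4.24 FPKM in NT1_hp2 and 5.21 and 5.43 FPKM in the negative control, and LARS2, at 2.86 and 2.69 FPKM in NT1_hp2 and 4.12 and 3.62 FPKM in the negative control, also kept the groups apart without passing. IARS2, the most abundant mitochondrial member, was at 32.2 and 31.0 FPKM in NT1_hp2 and 33.1 and 31.3 FPKM in the negative control. It overlapped between the groups, as did EARS2, MARS2, NARS2, PARS2, RARS2 and WARS2. MARS2, for methionine, was at 4.17 and 4.01 FPKM in NT1_hp2 and 3.82 and 4.46 FPKM in the negative control, and WARS2, for tryptophan, at 6.52 and 7.38 FPKM in NT1_hp2 and 6.77 and 6.66 FPKM in the negative control. FARS2, whose product charges phenylalanine as a single chain in mitochondria, was at 1.86 and 1.95 FPKM in NT1_hp2 and 2.20 and 1.98 FPKM in the negative control. Among the 15 tested genes 8 had both NT1_hp2 libraries below both controls and 0 had both above, where 34.8% and 32.0% of all tested genes did so.

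SARS2, for serine, was at 0.592 and 0.414 FPKM in NT1_hp2 (27 and 19 reads) and at 0.924 and 0.641 FPKM in the negative control (43 and 26 reads). Of its exon bases 46.2% are shared with ENSG00000269547 on the same strand, which was listed at 0 in every library, and 10.8% with MRPS12, a mitochondrial ribosomal protein gene on the other strand. The low level of SARS2 is therefore uncertain. HARS1 and HARS2 lie head to head on chromosome 5 and share 437 exon bases, which is 5.56% of HARS1 and 11.7% of HARS2.

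Within a library, the ratio of a cytosolic gene to its mitochondrial counterpart does not depend on how libraries are scaled. Of 13 pairs named for the same amino acid, 12 had a higher ratio in both NT1_hp2 libraries than in both controls, and the NARS1/NARS2 ratio overlapped. Single tested genes kept the groups apart in 66.8% of cases, in either direction, and no share was computed for ratios of other genes. The 12 include SARS1/SARS2, which had the largest difference, at 1.99 times the negative control. That ratio is uncertain, because SARS2 was untested and had 19 to 43 reads in a library. The IARS1/IARS2 ratio was 1.92 and 1.92 in NT1_hp2, against 1.02 and 1.14 in the negative control, which was near equality in the controls. The AARS1/AARS2 ratio was 7.35 and 7.84 in NT1_hp2, against 3.55 and 4.56 in the negative control. The LARS1/LARS2 ratio was 9.14 and 9.03 in NT1_hp2, against 4.54 and 5.49 in the negative control.

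The pairs differed in which member moved. For isoleucine, tryptophan and methionine the mitochondrial log2 fold change lay between −0.03 and 0.04 and the cytosolic gene rose. For alanine, leucine, threonine, cysteine and tyrosine the cytosolic gene rose and the mitochondrial one had values of −0.45, −0.37, −0.37, −0.33 and −0.29 without passing. For valine and histidine both were lower in value, and the ratio was 1.20 and 1.10 times that of the negative control. For arginine it was 1.13 times, and for asparagine 0.992 times. Serine is not placed here, because SARS2 was not tested. The median ratio over the 13 pairs was 2.73 and 2.39 in NT1_hp2, against 1.52 and 1.44 in the negative control, and the summed FPKM of the cytosolic genes was 4.63 and 4.45 times that of the mitochondrial genes in NT1_hp2, against 3.26 and 3.52 times in the negative control. No share of such pairs among other genes was computed.

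**Figure D3:**
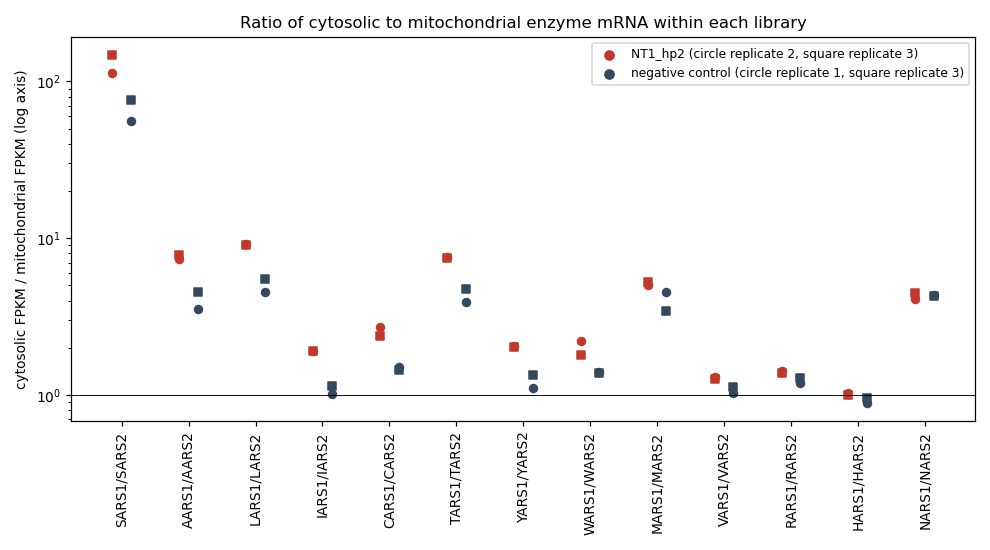
Ratio of cytosolic to mitochondrial FPKM for the 13 enzyme pairs in each library, on a log axis, ordered by the difference between the groups. The 2 NT1_hp2 libraries (red) lie above the 2 negative control libraries (dark) in 12 pairs, and the groups overlap for NARS1/NARS2. No such share was computed for ratios of other genes.

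Base composition moved with the changes. Across 12141 tested protein-coding genes, Spearman's rho between GC content of the longest transcript and the log2 fold change was −0.65, a description over genes that share the same 4 libraries. The median GC content was 48.6% for cytosolic and 51.2% for mitochondrial members. Between 50% and 55% GC, 5 tested cytosolic members had a median of 0.36 and 6 tested mitochondrial members a median of −0.21, beside −0.12 for 1837 protein-coding genes. Below 45% GC, 7 cytosolic members had a median of 0.37 and 4 mitochondrial members a median of 0.01, beside 0.16 for 4620 protein-coding genes. Above 55% GC, where all protein-coding genes had a median of −0.28, 4 cytosolic members had a median of −0.31 and 2 tested mitochondrial members one of −0.42, and YARS1 rose while FARSA, QARS1 and VARS2 fell. Between 45% and 50% GC, the 3 cytosolic members had a median of −0.02 and the 3 mitochondrial members one of −0.29, beside 0.0043 for 2020 protein-coding genes. The cytosolic median thus lay above that of all protein-coding genes in 2 of the 4 GC ranges and slightly below it in the other 2, while the mitochondrial median lay below it in all 4.

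After removal of per-library trends with length and GC content, the medians were 0.29 for the cytosolic and −0.12 for the mitochondrial genes. In that fit 7 cytosolic genes were higher (AARS1, GARS1, IARS1, MARS1, SARS1, WARS1 and YARS1), QARS1 was lower and 0 mitochondrial genes passed. An unadjusted p under 0.05 (limma-trend) was found for 4 of 15 mitochondrial genes, a share similar to the 4487 of all 16350 genes there. Only 295 of all tested genes passed there. The cytosolic member of a pair stayed above its counterpart in change for 11 of 12 tested pairs, with differences of −0.02 to 0.77 on the log2 scale.

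**Figure D4:**
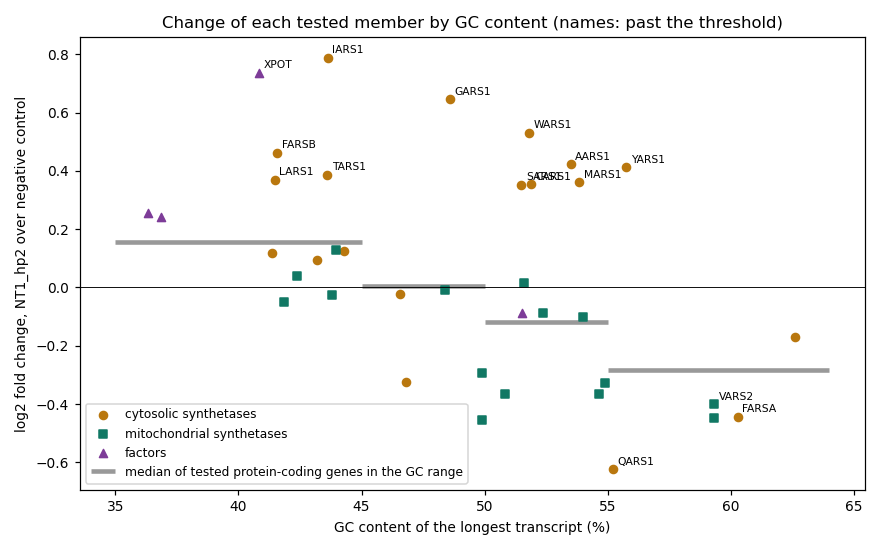
Log2 fold change of NT1_hp2 over negative control (vertical axis) against GC content of the longest transcript in percent (horizontal axis) for the 38 tested members, with grey bars for the median of tested protein-coding genes in 4 GC ranges. The grey medians run from 0.16 below 45% to −0.28 above 55%. Names mark the members past the threshold, of which FARSA, QARS1 and VARS2 lie below the grey bar of their range.

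XPOT, the receptor that carries tRNAs out of the nucleus, rose alongside the cytosolic enzymes. It was at 47.3 and 44.4 FPKM in NT1_hp2, against 26.5 and 27.7 FPKM in the negative control, with a fitted log2 difference of 0.74 (SE 0.068, and adjusted p = 0.0340 in limma-trend) and of 0.57 after the length and GC correction (adjusted p = 0.0405). The scaffold genes did not pass. AIMP1 was at 21.2 and 21.8 FPKM in NT1_hp2, against 18.8 and 16.9 FPKM in the negative control. EEF1E1 was at 6.28 and 5.21 FPKM in NT1_hp2, against 4.32 and 5.10 FPKM in the negative control, and AIMP2 at 9.01 and 8.58 FPKM in NT1_hp2, against 9.26 and 9.57 FPKM in the negative control. AIMP1 and EEF1E1 were thus higher in both NT1_hp2 libraries and AIMP2 lower, by small margins for EEF1E1 and AIMP2, and 28.9% of the exon bases of AIMP2 are shared with EIF2AK1 and 11.6% of those of AIMP1 with TBCK, both on the other strand, while 18.7% of those of EEF1E1 are shared with EEF1E1-BLOC1S5, listed at 0 in every library.

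Genes of tRNA charging outside the set were examined as a further list. Of 11 tested genes of charging and proofreading outside the set, 0 passed limma-trend, where 13.9% of all tested genes passed. The median log2 fold change of the 11 was 0.04. An unadjusted p under 0.05 was found for 3 of them, a smaller share than the 6061 of all 16362 tested genes. SEPSECS, of selenocysteine synthesis on its tRNA, and QRSL1, a subunit of the mitochondrial glutamine amidotransferase, had log2 fold changes of 0.32 and 0.29 without passing. GATB, another subunit of that enzyme, was at −0.20.

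Genes for tRNA maturation and for elongation were examined in the same way. Of 21 tested tRNA processing genes 1 fell and 0 rose, where 8.92% of all tested genes fell, and their median log2 fold change was −0.30, with 3 positive and 18 negative values. ELAC2, which trims the 3′ ends of tRNAs, fell to 8.01 and 8.39 FPKM in NT1_hp2, against 11.3 and 10.5 FPKM in the negative control. The splicing and end-maturation genes TSEN34, TRMT10C and TSEN54 had values of −0.36, −0.33 and −0.34 without passing. Of 9 mitochondrial translation factors TUFM, which delivers charged tRNAs to the mitochondrial ribosome, fell to 38.0 and 39.7 FPKM in NT1_hp2, against 57.8 and 56.5 FPKM in the negative control, and the other 8 did not pass. The median of these 9 was −0.02, with 4 positive and 5 negative values. Of 7 tested cytosolic elongation factor genes EEF1D fell and 6 did not pass, with a median of −0.26. In the amino acid starvation response list, which leaves out the synthetases, 13 of 24 tested genes rose and 0 fell. Over all tested genes 5.00% rose and 8.92% fell. The list had a median of 0.35, and a link between it and the cytosolic synthetases was not tested. Its members with the smallest p-values were DDIT3, ATF3, CEBPG and ALDH1L2, at log2 fold changes of 1.18, 1.38, 0.89 and 0.82. ATF4 itself did not pass, at 147 and 144 FPKM in NT1_hp2 and 185 and 157 FPKM in the negative control (log2 fold change −0.23, limma-trend adjusted p = 0.172).

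A change of library scaling moves both group medians by nearly the same amount, so it cannot decide whether they differ. The cytosolic median lay above the mitochondrial one by 0.457 to 0.464 under the scalings tried. The median of all tested genes was −0.01 as deposited and 0.05 with libraries scaled to their totals, and the share of calls that were higher was 35.9% as deposited, 53.6% with totals, 49.6% with upper-quartile factors, 57.8% with limma-voom and 47.1% with totals that leave out mitochondrially encoded genes. The cytosolic median exceeded the mitochondrial one by 0.38 to 0.62 in the as-deposited fit and its 14 alternatives. All 11 cytosolic genes that rose had a positive log2 fold change, and FARSA, QARS1 and VARS2 a negative one, in each of these settings. In several settings the sign could not change. The groups did not overlap for any of these genes, so leaving out 1 library cannot reverse it. Other filters and the lack of robust shrinkage leave the log2 fold change as it was. With any 1 library left out, 0 of the 19 cytosolic and 0 of the 15 mitochondrial genes passed limma-trend, in fits where 0 or 1 gene passed in all, while 12 to 14 cytosolic genes had an unadjusted p under 0.05.

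**Figure D5:**
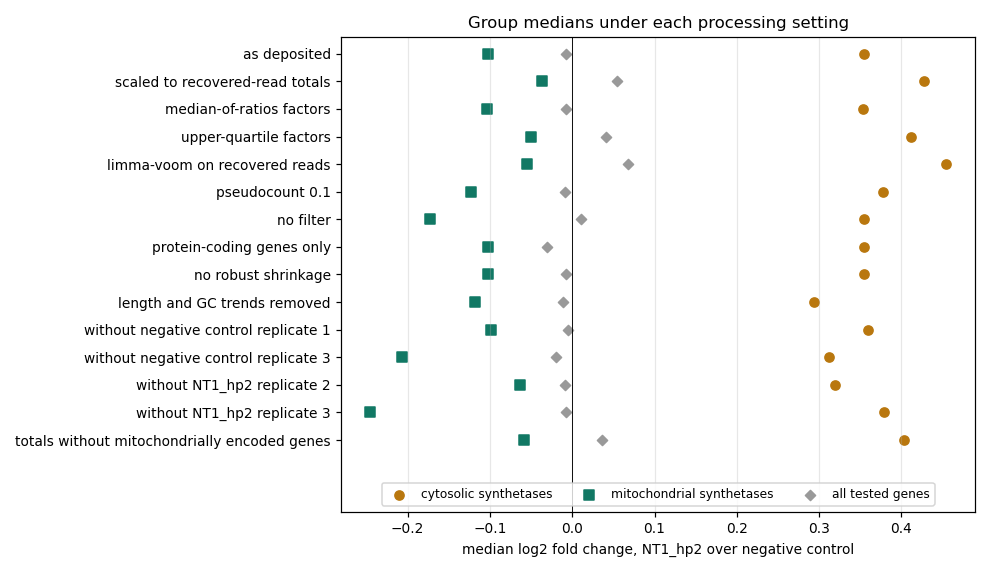
Median log2 fold change of NT1_hp2 over negative control for cytosolic synthetases (circles), mitochondrial synthetases (squares) and all tested genes (diamonds) under each processing setting. The cytosolic medians lie between 0.29 and 0.45, and the mitochondrial ones between −0.25 and −0.04.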

How the data were processed

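The authors deposited 1 table of gene values per library, taken here as FPKM since no unit stands in the file headers. Per the submitters' processing notes the build is GRCh38.p12. The sources used here give no aligner, counter or normalization. Multiplied by exon length in GENCODE 29, 100% of values above 0 came out as whole reads (within 0.01) at 1 step size per library. The library sizes these steps imply were 0.966 to 1.04 times the summed reads. No 2 files were identical (chi-square per degree of freedom 2.69 within NT1_hp2, 5.68 within the negative control, 13.2 to 28.2 between groups), so each library counted once.

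Genes that reached 1 FPKM in 2 or more libraries were tested with limma 3.58.1 (R 4.3.3), with intensity trend and robust shrinkage, on log2(FPKM + 1), which understates changes of low genes. The fit was also run on simulated counts with known changes. These held no length or GC trend between libraries, so that run says nothing of how such trends affect the calls here. Benjamini-Hochberg adjustment ran over the whole tested set. Alternatives were other scalings, limma-voom, a pseudocount of 0.1, other filters, no robust shrinkage, removal of length and GC trends (mgcv 1.9.3) and omission of each library. Totals without mitochondrial genes were added after seeing the data. Promoters came from RefSeq. Members and gene lists were chosen with earlier results of these data known. Values in every library are given for called members, the factors, GARS1, KARS1, QARS1 and partners of called members, and up to 4 genes per further list are named by smallest p-value. The values of NARS1, EPRS1, HARS2 and ATF4, outside that rule, were added after they were seen. Not every gene covered by this rule is reported here.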

Additional observations from a re-analysis of the deposited data

How the results depend on the processing

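As deposited, 2278 genes passed over all tested genes, 13 of them cytosolic synthetases and 1 a mitochondrial synthetase. After removal of length and GC trends the counts were 295, 8 and 0, and without the filter 0, 0 and 0 (6778, 14 and 5 at an unadjusted p under 0.05, limma-trend). With limma-voom they were 5787, 15 and 6, or 35.4%, 78.9% and 40% of those tested. Among protein-coding genes alone they were 4716, 14 and 7, or 38.8%, 73.7% and 46.7% of those tested. Leaving out 1 library gave 0 to 1 genes in all, 0 cytosolic and 0 mitochondrial ones, with 3315 to 5836, 12 to 14 and 2 to 6 at an unadjusted p under 0.05. The cause of these differences was not tested. The cytosolic median log2 fold change of 0.35 became 0.29 after removal of length and GC trends, 0.45 with limma-voom, 0.38 with a pseudocount of 0.1, 0.43 with library totals, 0.41 with upper-quartile factors and 0.40 with totals without mitochondrially encoded genes, and it was 0.31 to 0.38 with 1 library left out. The mitochondrial median of −0.10 was −0.25 to −0.063 with 1 library left out, lowest without NT1_hp2 replicate 3 and highest without NT1_hp2 replicate 2, and it was −0.21 without negative control replicate 3. With median-of-ratios factors FARSB, MARS1 and SARS1 did not pass, and without robust shrinkage FARSB and MARS1 did not. No paired analysis was possible because the groups share only replicate number 3. SARS2, at 19 to 43 reads, had the fewest reads of the members and lay under the filter of 1 FPKM.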
